A study of Mus musculus with 4 samples.

Results

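Klk10 and Klk13 encode members of the kallikrein family of secreted serine proteases. They were chosen from earlier results of these data, on the contrast of cultured day 8 epithelial cells against sorted day 0 cells, and were matched here by symbol: Klk10 is ENSMUSG00000030693 and Klk13 is ENSMUSG00000054046. They are 2 of 22547 features in the count tables and 2 of 26 kallikrein features. The contrast of day 8 with day 0 is therefore a description in what follows. The classes of cells that held the 2 transcripts, their detection together with other genes and the later days were not used in choosing them. A ratio of day 8 to day 0 within 1 epithelial class is still part of the contrast that was used.

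The study read droplet RNA-seq libraries from Gramd2creERT2;mTmG mouse lung, 1 for each of 4 days. In this genotype a tamoxifen-inducible Cre driven by Gramd2, which marks some flat gas-exchange (alveolar type I, AT1) cells, switches a membrane tdTomato reporter to membrane EGFP. The day 0 library held GFP+ cells taken straight from flow sorting, and the libraries of days 8, 13 and 20 held dissociated colonies grown from GFP+ cells in growth factor-reduced Matrigel, with fibroblasts of the MLg line as feeders. The medium of all 3 cultures contained serum, insulin and transferrin, and SB 431542, an inhibitor of the TGF-beta type I receptor, and cells were enriched with EpCAM beads before loading, a step described for the cultures and not for day 0. All 4 libraries share the genotype and are labelled alveolar epithelial cells. How many mice or cultures were pooled in a library was not given in the sources used here. Day, culture, bead enrichment and library cannot be told apart, so no p-value is given. Every interval is a 95% interval for counting error alone.

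Kallikreins are made as inactive precursors, secreted, and activated by trimming of a short leader, often by another kallikrein in a cascade. In skin and other stratified linings they cut desmosomal proteins and so help surface cells to shed, and the inhibitor encoded by Spink5 restrains several of them. KLK10 is best known as a protein of normal epithelia that is lost in many tumours, and KLK13 is a trypsin-like enzyme of stratified linings and secretions. In airways, kallikrein activity is a known part of the secretions.

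The genes lie close together on the forward strand of chromosome 7 in GRCm38, the assembly also called mm10. Klk13 spans chr7:43712567-43727534 and Klk10 spans chr7:43781035-43785410, and the 53500 bases between them hold Klk12 and Klk11. The principal transcript of each gene has 6 exons. The 250 bases before each start site, from the RefSeq promoter table of GRCm38.p6, are shown because the transcripts were found in the same classes of cells. They are written 5′ to 3′ on the forward strand, with matches to the searched motifs in capitals.
Klk10 promoter, chr7:43780804-43781053: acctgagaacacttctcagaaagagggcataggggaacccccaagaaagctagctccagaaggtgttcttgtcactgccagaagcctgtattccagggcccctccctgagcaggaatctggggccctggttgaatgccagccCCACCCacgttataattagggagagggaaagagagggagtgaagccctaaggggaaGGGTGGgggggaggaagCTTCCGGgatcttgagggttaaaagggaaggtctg
Klk13 promoter, chr7:43712317-43712566: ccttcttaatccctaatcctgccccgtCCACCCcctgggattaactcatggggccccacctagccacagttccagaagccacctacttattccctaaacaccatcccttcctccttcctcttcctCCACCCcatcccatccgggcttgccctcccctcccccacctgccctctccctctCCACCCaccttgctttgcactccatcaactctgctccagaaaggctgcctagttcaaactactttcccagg

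The RefSeq start of Klk10 lies inside the gene as annotated by GENCODE, so the last bases of its window belong to the first GENCODE exon. Of 5 motifs searched on both strands, CCACCC, the letters of a CACCC box, occurred 2 times in the Klk10 window and 3 times in the Klk13 window. It occurred in 28.1% of 32851 mouse promoter windows of this length. CCGGAAG, an ETS motif, occurred 1 time in the Klk10 window, on the reverse strand, and in 6.91% of all windows. TATAAA (12.4% of all windows), the AP-1 motif TGANTCA (6.75%) and the E-box CACGTG (6.02%) did not occur in either. No matches overlapped, and a match describes letters only.

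Libraries held 8902 to 11445 barcodes and 31850454 to 154258012 UMIs, or unique molecular identifiers, each counting 1 captured transcript. Barcodes with at least 500 genes and at most 15% mitochondrial UMIs numbered 7350, 7893, 9311 and 9178 at days 0, 8, 13 and 20, and pairs of libraries shared 25 to 41 barcode sequences. The epithelial class (clusters named AT1-like, AT2-like, airway secretory-like, basal-like or ciliated-like) made up 15.7, 8.48, 20.5 and 11.6% of the cells used, against a label of alveolar epithelial cells for all. At day 0 it held 468 AT1-like, 497 ciliated-like, 81 AT2-like and 26 airway secretory-like cells, and no basal-like cells. Epithelial cells had a median depth of 3216 UMIs when sorted, against 14937, 14535 and 14278.5 UMIs on the 3 culture days. A gene's level is given as CPM, its UMIs per 1000000 UMIs of the same group of cells.

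Both kallikreins were nearly absent from the sorted cells and were present in every culture library. Klk10 gave 9 UMIs in 7 of the 7350 kept cells at day 0 (5 of them in mesothelial-like cells), 3922 UMIs in 397 cells at day 8, 12975 UMIs in 1373 cells at day 13 and 4617 UMIs in 426 cells at day 20. Klk13 gave 4 UMIs in 4 cells at day 0, then 4961 UMIs in 692 cells, 11722 UMIs in 1643 cells and 6836 UMIs in 846 cells. Day 13 had the most UMIs of both genes, and it was also the library with the most epithelial cells, at 1732 against 608 and 976 at days 8 and 20.

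Epithelial cells held nearly all of these transcripts. Of the Klk10 UMIs in cells used for classes, the epithelial class held 96.3, 96.9 and 98.2% at days 8, 13 and 20. For Klk13 the shares were 95.8, 96.9 and 98.2%. Myeloid-like cells, which should lack both genes, served as the reference for free RNA. They stood at 1.08, 6.05 and 1.05 CPM of Klk10 and at 1.65, 5.42 and 1.12 CPM of Klk13. Mesenchymal-like cells, the class that would hold the feeder fibroblasts, stood at 1.20, 3.24 and 0.655 CPM of Klk10 and 0.773, 2.37 and 0.751 CPM of Klk13. In both reference classes the level was highest at day 13, the day on which the library as a whole held most Klk10 and Klk13.

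Within the epithelial class, Klk10 stood at 0.629 CPM at day 0 (3 UMIs), 271 CPM at day 8, 353 CPM at day 13 and 252 CPM at day 20. Klk13 stood at 0.419 CPM (2 UMIs), 349, 317 and 372 CPM. The levels of the 3 culture days thus lay within 1.40-fold of each other on neighbouring days for Klk10 and within 1.17-fold for Klk13, while day 0 lay far below.

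On the contrast used to choose them, Klk13 and Klk10 had the largest and the next largest of 7328 ratios of day 8 over day 0. The log2 ratios were 9.11 (7.85 to 12.75) for Klk13 and 8.75 (7.20 to 11.03) for Klk10, with the day 0 count of Klk13 set to the floor of 3 UMIs. On that contrast 12.4% of genes were at least 2-fold higher, with the interval off 1 and at least 20 CPM on the higher side. Nothing is read from the members' places in it.

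Neither gene met the 2-fold rule at the later steps. From day 8 to day 13 the log2 ratio was 0.38 (0.32 to 0.44) for Klk10 and -0.14 (-0.19 to -0.08) for Klk13, where 3.70% of 5926 genes were called higher and 1.54% lower. From day 13 to day 20 it was -0.48 (-0.53 to -0.43) for Klk10 and 0.23 (0.18 to 0.28) for Klk13, where 3.16% of 5978 genes were called higher and 6.26% lower. The ratios of the 2 genes had opposite signs at each of these steps. Other ways of treating the cells moved these values. The Klk10 ratio of day 13 to day 8 was 0.70 when clusters were named by the highest-scoring list alone, which leaves the airway secretory cluster unnamed, and its ratio of day 20 to day 13 was then -1.90. That ratio was 0.00407 with each library clustered on its own, and Klk13 turned to 0.20 at day 13 against day 8 with no filter on cells.

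**Figure D1:**
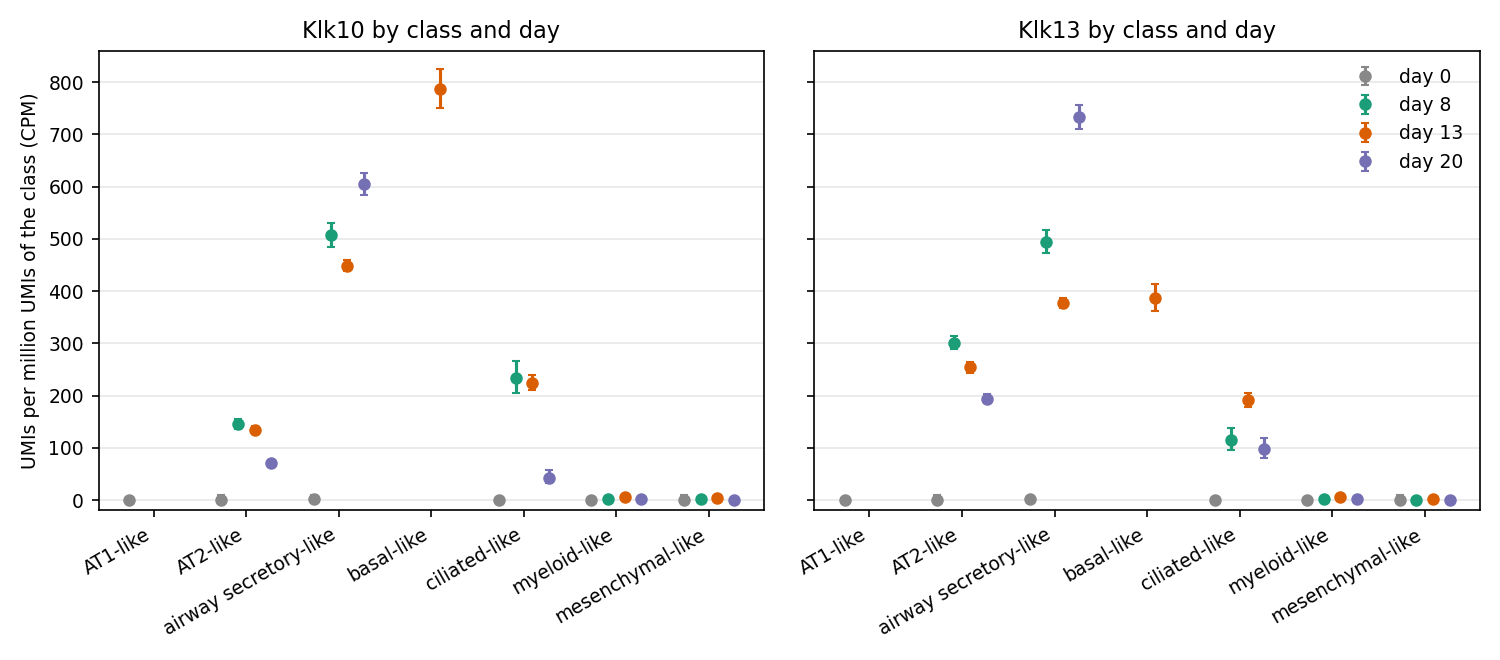
Level of Klk10 (left) and Klk13 (right) in named classes on each day, as CPM of the class, with exact Poisson 95% intervals, for classes of at least 20 cells. All day 0 points and all myeloid-like and mesenchymal-like points lie near 0, while airway secretory-like cells of days 8, 13 and 20 lie at 507, 448 and 605 CPM of Klk10 and at 494, 378 and 733 CPM of Klk13.

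Alveolar type II (AT2) cells make surfactant, and AT2-like cells were present on all 4 days, as were airway secretory-like and ciliated-like cells. The 81 AT2-like cells of day 0 gave 0 UMIs of either gene, where the floor of 3 UMIs stands at 8.47 CPM. At days 8, 13 and 20 AT2-like cells stood at 145, 134 and 71.0 CPM of Klk10 and at 301, 254 and 194 CPM of Klk13, from 414, 569 and 619 cells. With day 0 set to that floor, day 8 stood 17.1-fold higher for Klk10 and 35.6-fold higher for Klk13. Of 6231 genes, 12.8% were called higher. These ratios are not lower limits, since the interval for 0 UMIs at day 0 reaches 10.4 CPM. They are part of the contrast used to choose the members, and nothing is read from them. The levels of both genes were lowest at day 20 among the cultures. Klk10 at day 20 was lower than at day 8, at a log2 ratio of -1.03 (-1.17 to -0.89), where 4.95% of 5419 genes were called lower, and Klk13 was at -0.64 (-0.73 to -0.54), which was not called. The Klk10 call was lost at Leiden resolutions 0.5 and 2.0, where the levels at days 8 and 20 were 139 and 74.6 CPM and 140 and 73.3 CPM. The class changed in makeup: when epithelial cells were clustered again on their own, sub-cluster 3 held 29.2, 23.7 and 4.52% of its cells at days 8, 13 and 20 and 63.1, 60.9 and 9.34% of its Klk10 UMIs. With each library clustered on its own, the AT2-like cells of day 8 stood at 285 CPM of Klk10 and 382 CPM of Klk13.

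Airway secretory-like cells held both transcripts at higher CPM than AT2-like cells did. This class was led by Ltf, Akr1c18, Aqp4 and Krt15, with the secretoglobins Scgb3a1 and Scgb3a2 further down. Its name scored 2.91, and the basal list came next at 2.45. Klk10 stood at 507, 448 and 605 CPM at days 8, 13 and 20, and Klk13 at 494, 378 and 733 CPM, from 164, 888 and 310 cells. The log2 ratio to AT2-like cells of the same library was 1.80 (1.69 to 1.91), 1.75 (1.66 to 1.84) and 3.09 (2.97 to 3.21) for Klk10, called on each day. For Klk13 it was 0.71, 0.57 and 1.92, called at day 20 only, though the differences between days were not tested. In these comparisons 7.92, 15.3 and 13.6% of genes were called higher in the airway secretory-like cells. With each library clustered on its own, no culture cluster took this name, so neither the class nor this comparison exists under that alternative. At day 0 the class was 26 cells with 2 Klk10 UMIs and 1 Klk13 UMI, and the secretoglobin Scgb1a1 alone took 645371 CPM of it. The ratio of day 8 to day 0 is not read there, since 82.7% of 5566 genes were called higher.

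The airway secretory-like class was not made of the same cells on each day. In that second clustering, into 20 sub-clusters numbered from 0, its day 20 cells fell mostly into airway secretory-like sub-clusters 9 (52.9%) and 12 (29.0%). Its day 13 cells fell into the Krt5-rich basal-like sub-cluster 4 (34.2%), airway secretory-like sub-cluster 6 (23.5%), the cycling basal-like sub-cluster 14 (12.8%) and an unnamed sub-cluster 17 (11.5%). At day 8, 28.7 and 20.1% of the class fell into AT2-like sub-clusters 3 and 16, which held 17.6 and 38.3% of its Klk10 UMIs and 18.2 and 42.1% of its Klk13 UMIs. Most of the class's Klk10 and Klk13 UMIs at day 8 thus lay in cells that the second clustering placed among AT2-like sub-clusters.

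A class named basal-like by its marker list was found at day 13 alone when the libraries were clustered jointly. Its 150 cells were led by Krt13, Krtdap, Crct1 and Krt6a, mostly genes of stratified squamous lining, with the basal keratin Krt14 further down. The Krt5 and Trp63 cells of sub-cluster 4 lay mostly in the airway secretory-like class. With each library clustered on its own, clusters of 32 cells at day 8 and 315 cells at day 20 were also named basal-like. In the 150 cells Klk10 stood at 787 CPM and Klk13 at 387 CPM. Klk10 was higher there than in AT2-like cells of day 13, at a log2 ratio of 2.56 (2.45 to 2.67). On this comparison 18.7% of 5847 genes were called higher. Klk13 was at 0.61 (0.49 to 0.72), not called, and 1 cell held 185 of its 878 UMIs in the basal-like class. Detection of Klk13 at equal depth, by the thinning described below, went the other way. It was found in 17.5% (11.6 to 24.7) of basal-like and 30.2% (26.4 to 34.2) of AT2-like cells of day 13. For Klk10 these shares were 34.3 and 12.5%.

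Ciliated-like cells carried both transcripts in culture but not at day 0. The 497 ciliated-like cells of day 0 gave 0 Klk10 UMIs and 1 Klk13 UMI. In culture they stood at 234, 225 and 42.9 CPM of Klk10 and at 115, 191 and 98.0 CPM of Klk13, from 30, 124 and 47 cells. With day 0 set to the floor of 3 UMIs, day 8 stood 182-fold higher for Klk10, at a log2 ratio of 7.51 with a lower limit of 7.20. Of 7612 genes, 14.6% were called higher. This ratio too is part of the contrast used to choose the members, and nothing is read from it. Of the 236 Klk10 UMIs of day 8, 161 lay in 1 of the 7 cells with any, and of the 116 Klk13 UMIs, 62 lay in 1 of 10 cells. Klk13 at day 8 was lower than in AT2-like cells of that library, at a log2 ratio of -1.39 (-1.67 to -1.12), where 6.20% of 6698 genes were called lower. Klk10 at day 20 was lower than at day 13, at a log2 ratio of -2.39 (-2.83 to -1.98), where 3.21% of 6821 genes were called lower. Few cells lay behind this: 6 of the 47 ciliated-like cells of day 20 had a Klk10 UMI, and 54 of the 124 of day 13. AT1-like cells of day 0, the cells the Gramd2 reporter is meant to mark, gave 1 Klk10 UMI and 0 Klk13 UMIs in 468 cells.

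**Figure D2:**
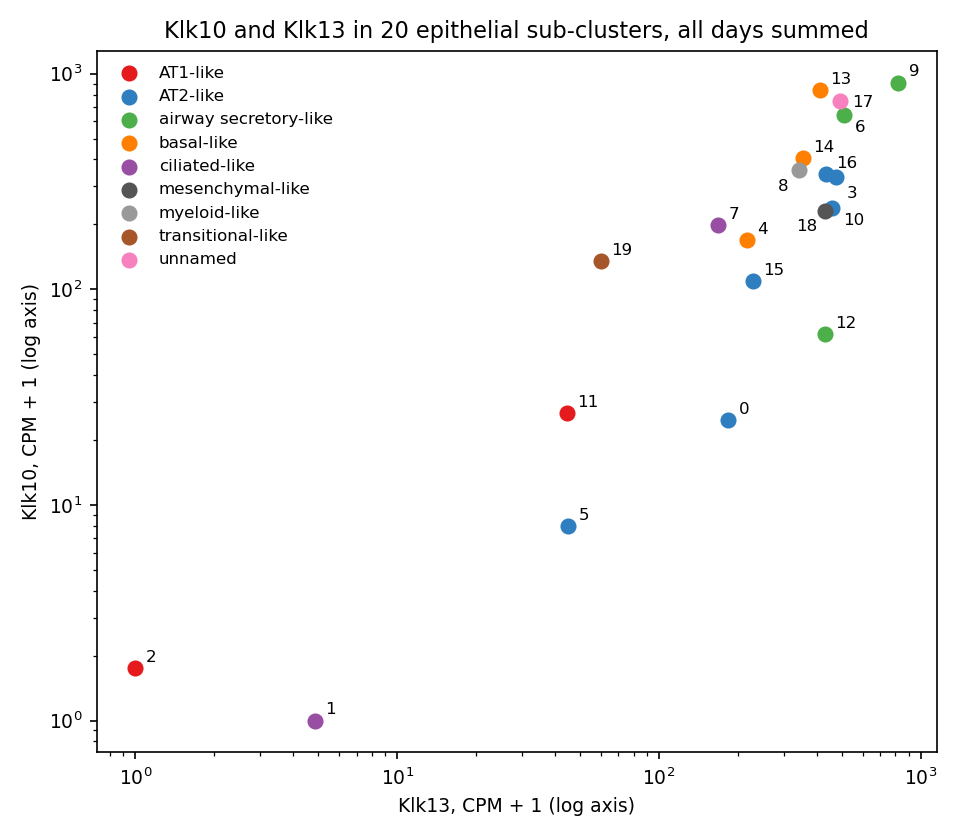
Level of Klk10 against Klk13 in each of the 20 epithelial sub-clusters with all days summed, both as CPM plus 1 on log axes; numbers name the sub-clusters and colours their class. Sub-cluster 9 lies highest on both axes at 907 and 820 CPM, while sub-clusters 0 and 12 lie to the lower right, with 23.7 and 61.0 CPM of Klk10 at 183 and 429 CPM of Klk13.

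The sub-clusters separated the 2 genes further. In sums of at least 30 cells of 1 sub-cluster and day, Klk10 ranged from 1.70 to 409 CPM at day 8, from 16.5 to 836 CPM at day 13 and from 0 to 939 CPM at day 20. Klk13 ranged from 42.4 to 504, from 53.8 to 518 and from 4.04 to 831 CPM. The top of each range was a different group of cells at days 8 and 20. At day 8 it was the cycling sub-cluster 16, named AT2-like. Of the 77 day 8 cells of sub-cluster 16, 33 belonged to the airway secretory-like class. They held 762 of the sub-cluster's 895 Klk10 UMIs of that day and 816 of its 1102 Klk13 UMIs. The Klk13 interval of sub-cluster 16, 475 to 535 CPM, overlapped that of sub-cluster 3, 472 to 525 CPM. At day 20 the top was airway secretory-like sub-cluster 9, with Ltf and Gpx3 among its leading genes. At day 13 the highest Klk10 level was that of the Krt13-high sub-cluster 13, at 836 CPM, and the highest Klk13 level was that of the Ltf-rich and Scgb3a2-rich sub-cluster 6, at 518 CPM.

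AT2-like sub-clusters differed more in Klk10 than in Klk13. In the Lyz1-high sub-cluster 0, Klk10 stood at 31.6, 26.9 and 15.1 CPM at days 8, 13 and 20 and Klk13 at 233, 194 and 138 CPM. In sub-cluster 3, led by Rbp4 and Retnla, Klk10 stood at 354, 358 and 138 CPM and Klk13 at 498, 496 and 304 CPM. Sub-cluster 5, the only AT2-like group with day 0 cells in number and the richest of them in EGFP (1299 CPM), stood at 1.70, 16.5 and 2.24 CPM of Klk10 and at 42.4, 72.6 and 29.2 CPM of Klk13. At day 20 AT2-like sub-cluster 10 stood at 180 and 439 CPM and the interferon-gene sub-cluster 15 at 92.1 and 179 CPM. Between sub-clusters 0 and 3 at day 8 the Klk10 intervals, 24.4 to 40.3 and 332 to 377 CPM, lay far apart, as did the Klk13 intervals, 212 to 254 and 472 to 525 CPM.

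In culture, cells with AT1 genes held little of either transcript. Sub-cluster 11, AT1-like with 7532 CPM of Ager, the receptor that marks AT1 cells, also carried Sftpc. It stood at 35.0, 37.0 and 0 CPM of Klk10 at days 8, 13 and 20 and at 75.8, 53.8 and 4.04 CPM of Klk13, from 32, 69 and 50 cells. At day 20 its 0 Klk10 UMIs have an upper limit of 7.46 CPM, and the floor of 3 UMIs stands at 6.06 CPM.

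Balance between the genes was read as the share of Klk10 in the UMIs of both, which serves only to set groups of cells side by side. It was 11.5% (10.0 to 13.1) in AT2-like sub-cluster 0, 12.5% (10.6 to 14.5) in the Scgb1a1-high airway secretory-like sub-cluster 12 and 13.7% (8.57 to 20.4) in AT2-like sub-cluster 5. It was 67.0% (65.2 to 68.8) in the Krt13-high sub-cluster 13 and 69.4% (61.2 to 76.8) in the small transitional-like sub-cluster 19. In sub-clusters 6, 9 and 14 it was 55.8, 52.5 and 53.4%. Sub-cluster 12 at day 20, with 50.7 CPM of Klk10 and 596 CPM of Klk13, and sub-cluster 9 of the same library, with 939 and 831 CPM, show the split within 1 class: their Klk10 intervals are 38.9 to 65.0 and 904 to 975 CPM.

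Another 188 cells of the epithelial class formed sub-cluster 8, led by macrophage genes such as C3ar1 and Mrc1, and 30 formed sub-cluster 18, led by fibroblast genes such as Col1a1. Sub-cluster 8 stood at 317, 386 and 338 CPM of Klk10 at days 8, 13 and 20, and sub-cluster 8 also carried 36509 CPM of Sftpc and 7778 CPM of Scgb3a2. Over the whole epithelial class, the summed level of 13 myeloid markers in cells thinned to 2000 UMIs was 736, 1346 and 650 CPM in cells with a Klk10 UMI and 482, 1178 and 476 CPM in cells without one. Of those markers, 9, 12 and 11 were detected in cells with a Klk10 UMI, with Itgax at 0 in them on each day and C1qa, S100a8 and S100a9 also at 0 at day 8. For Klk13 the sums were 519, 1184 and 512 CPM with a UMI and 545, 1242 and 504 CPM without. The sum of 10 mesenchymal markers was 72.0, 140 and 227 CPM with a Klk10 UMI and 76.1, 134 and 260 CPM without, and Tcf21 was at 0 throughout. The part of such RNA in single cells' detection was not tested. Of the Klk10 UMIs of the airway secretory-like class, sub-cluster 8 held 17.7, 12.1 and 8.19% at days 8, 13 and 20. For Klk13 it held 14.2, 9.49 and 8.43%, from 11, 65 and 16 cells. Without sub-clusters 8 and 18 the log2 ratio of day 8 to day 0, the contrast used to choose the members, was 8.72 for Klk10 and 9.13 for Klk13. Day 13 over day 8 was then 0.40 and -0.16, and day 20 over day 13 was -0.50 and 0.20. Levels by class are not given without these sub-clusters.

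Detection with other genes was read after each cell was thinned to 2000 UMIs, so that depth was equal. The thinned epithelial cells numbered 788, 585, 1665 and 924. Klk10 was found in 0, 21.4, 26.7 and 17.6% of them and Klk13 in 0, 35.6, 33.2 and 36.5%. Before thinning the culture shares were 36.7, 49.4 and 30.9% for Klk10 and 69.6, 65.3 and 64.4% for Klk13. Thinned myeloid-like cells gave 0.274, 1.35 and 0.339% for Klk10 and 0.343, 1.48 and 0.407% for Klk13, at median depths before thinning of 16728, 8654 and 9196 UMIs.

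Sftpc encodes surfactant protein C, the defining product of AT2 cells. Klk10 was found less often in epithelial cells with at least 20 Sftpc UMIs of 2000 than in the others. The shares inside and outside this gate were 13.0% (9.70 to 16.9) and 35.0% (28.7 to 41.6) at day 8, 10.4% (7.85 to 13.5) and 33.4% (30.8 to 36.2) at day 13, and 5.82% (4.01 to 8.11) and 35.0% (30.2 to 40.1) at day 20. These intervals did not overlap on any of the 3 days. For Klk13 the shares were 34.0 and 38.1% at day 8, 29.6 and 34.6% at day 13, and 23.3 and 55.9% at day 20, and only the day 20 intervals, 19.8 to 27.0 and 50.7 to 61.0%, were apart. Shares inside the Sftpc gate stood well above those of myeloid-like cells for both genes.

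Scgb3a2, a secretoglobin of airway secretory cells, went with more frequent detection of both. Inside the gate of at least 10 UMIs of 2000, Klk10 was found in 72.4% (52.8 to 87.3) of 29 cells at day 8, 50.9% (45.4 to 56.4) of 336 cells at day 13 and 40.0% (30.3 to 50.3) of 100 cells at day 20. Outside it the shares were 18.7, 20.5 and 14.9%. Klk13 was found in 62.1, 54.8 and 64.0% inside and in 34.2, 27.7 and 33.1% outside. Every inside interval lay above its outside interval, on all 3 days and for both genes, with no share over other genes to set beside this.

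Krt5, the basal keratin, marked the most cells at day 13, where 440 cells had at least 2 Krt5 UMIs of 2000. Klk10 was found in 19.8% (16.2 to 23.8) of them and in 29.1% (26.6 to 31.8) of the rest, and Klk13 in 21.8% (18.0 to 26.0) and 37.2% (34.5 to 40.0). The Klk10 difference depends on where the gate is set, and 312 cells of day 13 lay within 2-fold of it, 168 just inside and 144 just outside. With gates at 0.5 times the UMIs, Klk10 was found in 26.7% of the cells inside, the same as over all epithelial cells of that day, and Klk13 in 27.2%. At day 8 the gate held 34 cells, of which 5 had a Klk10 UMI and 5 a Klk13 UMI. At day 20 it held 5 cells, and at day 0 it held none. Cells that passed both the Scgb3a2 and the Krt5 gate at day 13 numbered 39, and Klk10 was found in 43.6% (27.8 to 60.4) and Klk13 in 53.8% (37.2 to 69.9). The 400 cells that passed the Krt5 gate alone gave 17.5% (13.9 to 21.6) and 18.5% (14.8 to 22.7).

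Many kallikrein cells fell in none of these 3 gates. Such cells were 27.9, 26.8 and 29.4% of all thinned epithelial cells at days 8, 13 and 20. They held 41.6, 34.2 and 56.4% of the Klk10-detected epithelial cells at days 8, 13 and 20, and 30.3, 27.5 and 43.3% of the Klk13-detected cells, which for Klk13 is close to their share of all cells at days 8 and 13. At day 20, sub-cluster 9 supplied 73.9% of the ungated Klk10 cells. At day 8, AT2-like sub-clusters 3 and 16 supplied 44.2 and 23.1% of them. At day 13 they came from many groups, of which the Krt13-high sub-cluster 13 gave the most, 21.1%.

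**Figure D3:**
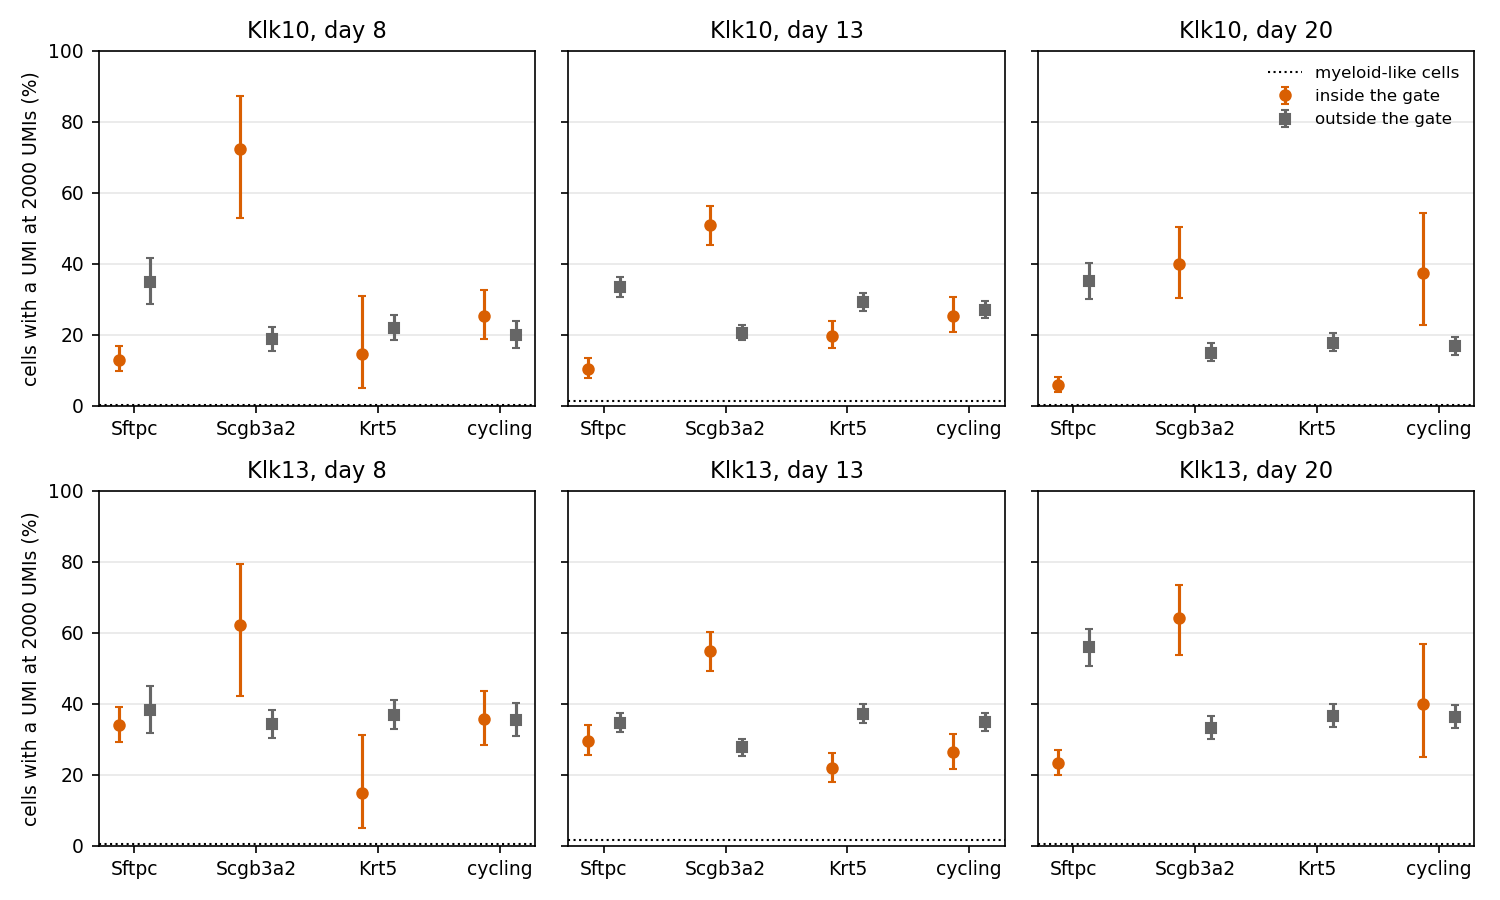
Share of thinned epithelial cells with a Klk10 (top) or Klk13 (bottom) UMI inside (circles) and outside (squares) gates on Sftpc, Scgb3a2, Krt5 and cycling genes, with Clopper-Pearson 95% intervals; the dotted line is the share in myeloid-like cells, and gates of under 20 cells are not drawn. For Klk10, cells inside the Sftpc gate lie below the others at 13.0, 10.4 and 5.82%, and cells inside the Scgb3a2 gate lie above them at 72.4, 50.9 and 40.0%.

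Cycling cells, those with at least 2 UMIs of 2000 from 12 cell cycle genes such as Mki67 and Top2a, numbered 162, 319 and 40 at days 8, 13 and 20. Klk10 was found in 25.3% (18.8 to 32.7) of them and 19.9% (16.2 to 24.0) of the others at day 8, in 25.4% (20.7 to 30.5) and 27.0% (24.6 to 29.4) at day 13, and in 37.5% (22.7 to 54.2) and 16.7% (14.3 to 19.4) at day 20. Klk13 was found in 35.8 and 35.5%, in 26.3% (21.6 to 31.5) and 34.8% (32.2 to 37.4), and in 40.0 and 36.3%. The direction was not shared by the days, and the intervals were apart only for Klk10 at day 20 and for Klk13 at day 13. Here too no share over other genes stands beside the intervals. Many cells lay near this gate: at day 13, of 323 cells within 2-fold of it, 127 were just inside and 196 just outside.

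Within classes the direction also varied. Among AT2-like cells of day 8, Klk10 was found in 13.4% of 82 cycling and 15.1% of 317 other cells, and Klk13 in 31.7 and 33.8%. At day 13, Klk13 was found in 17.6% (8.40 to 30.9) of 51 cycling AT2-like cells and 31.5% (27.4 to 35.7) of 502 others. Among airway secretory-like cells of day 13, Klk10 was found in 27.0% (21.0 to 33.6) of 204 cycling cells and 39.4% (35.6 to 43.2) of 648 others, and Klk13 in 34.3 and 42.0%. At day 20, airway secretory-like cells gave 57.1% (34.0 to 78.2) of 21 cycling and 39.6% (33.7 to 45.6) of 273 others for Klk10.

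Cells with one kallikrein held the other more often than cells without it. Among epithelial cells with a Klk10 UMI after thinning, Klk13 was found in 62.4% (53.3 to 70.9), 56.3% (51.6 to 61.0) and 74.8% (67.5 to 81.3) at days 8, 13 and 20. Among epithelial cells without one, it was found in 28.3, 24.7 and 28.3%. The direction was the same within classes. In AT2-like cells Klk13 was found in 66.1, 56.5 and 56.1% of Klk10 cells against 27.6, 26.4 and 22.3% of the others. In airway secretory-like cells it was found in 59.4, 59.4 and 81.7% against 36.2, 29.2 and 51.7%. In the basal-like cells of day 13 the shares were 38.8 and 6.38%. The intervals of airway secretory-like cells of day 8, 46.4 to 71.5 and 26.5 to 46.7%, overlapped. No share over other pairs of genes stands beside these values. Classes mix sub-clusters that differ in both genes, and the part of this makeup was not tested. Klk10 cells had somewhat deeper libraries before thinning, with a median of 19071 against 14611 UMIs at day 8, 15782 against 14668 at day 13 and 15372 against 14711 at day 20.

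Klk10 was held by fewer cells than Klk13. The top 10% of epithelial cells held 76.6, 67.5 and 81.6% of Klk10 UMIs and 55.0, 52.8 and 48.9% of Klk13 UMIs. The highest count in 1 cell was 262 UMIs of Klk10 and 185 of Klk13, both at day 13. The median positive epithelial cell had 5 or 6 UMIs of either gene on each culture day.

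**Figure D4:**
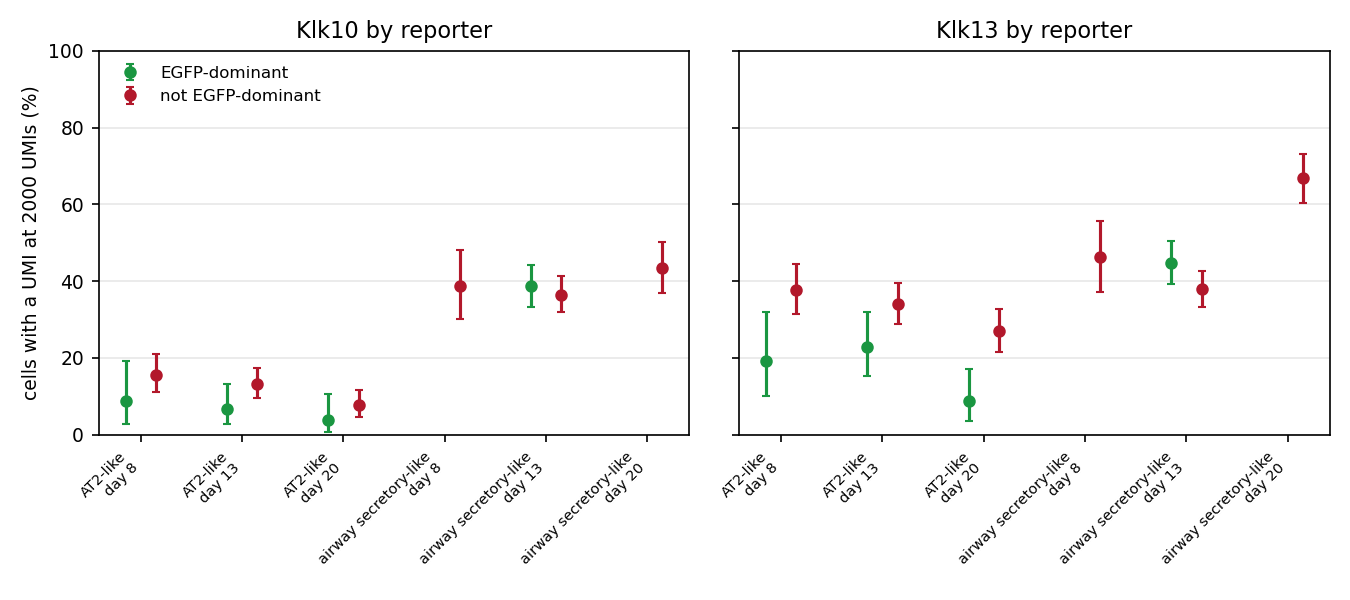
Share of thinned AT2-like and airway secretory-like cells with a Klk10 (left) or Klk13 (right) UMI, split by whether at least 80% of the cell's reporter UMIs were EGFP, with Clopper-Pearson 95% intervals and groups under 20 cells not drawn. In AT2-like cells the EGFP-dominant points lie below the others on each day, at 19.3, 22.9 and 8.75% against 37.8, 34.1 and 26.9% for Klk13.

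The reporter marks cells whose ancestors switched to EGFP. It was read in epithelial cells with at least 2 reporter UMIs, and a cell was called EGFP-dominant at 80% EGFP or more. In AT2-like cells Klk13 was found in 19.3% (10.0 to 31.9) of EGFP-dominant and 37.8% (31.4 to 44.5) of other cells at day 8, in 22.9% (15.2 to 32.1) and 34.1% (28.9 to 39.5) at day 13, and in 8.75% (3.59 to 17.2) and 26.9% (21.5 to 32.9) at day 20. Klk10 was found in 8.77 and 15.6%, 6.67 and 13.1%, and 3.75 and 7.63%, with overlapping intervals on each day. The EGFP-dominant share was lower on each day, and the intervals were apart for Klk13 at day 20 alone, with no share over other genes to set beside this. AT2-like sub-clusters differed in both EGFP and Klk13, and the part of this makeup was not tested.

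Over the whole epithelial class, EGFP-dominant cells were 8.79, 36.3 and 2.50% of cells with a Klk10 UMI and 16.9, 33.4 and 16.8% of those without, so day 13 differed in direction from days 8 and 20. Airway secretory-like cells of day 13 did not share the direction of AT2-like cells. Klk10 was found in 38.6% (33.2 to 44.3) of 308 EGFP-dominant cells and 36.5% (31.9 to 41.2) of 433 others, and Klk13 in 44.8% (39.2 to 50.5) and 37.9% (33.3 to 42.6). At days 8 and 20 the class had too few EGFP-dominant cells to compare. The unnamed sub-cluster 17, 102 cells of day 13 with 2197 CPM of EGFP and 10.2 CPM of tdTomato, stood at 747 CPM of Klk10 and 490 CPM of Klk13. The Krt13-high sub-cluster 13 of the same library, with 7.06 CPM of EGFP and 201 CPM of tdTomato, stood at 836 and 411 CPM. High levels of both genes were thus found in cells with either reporter.

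**Figure D5:**
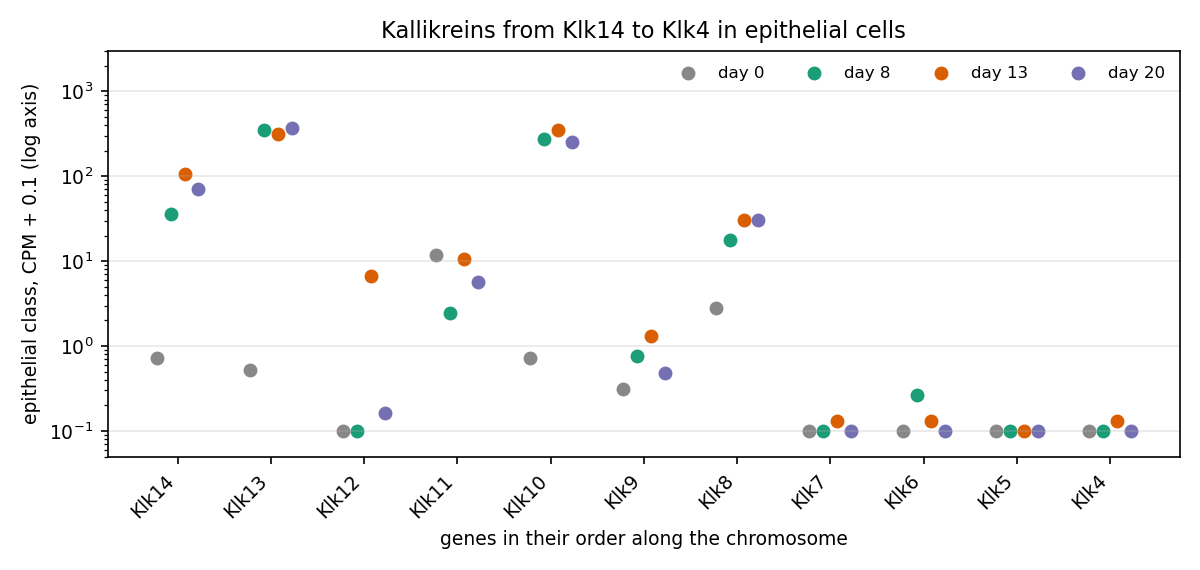
Level of the kallikreins from Klk14 to Klk4 in the epithelial class on each day, as CPM plus 0.1 on a log axis, with genes in their order along the chromosome. Klk13 and Klk10 lie at 252 CPM or more on each culture day, Klk14 reaches 105 CPM and Klk8 30.3 CPM at day 13, and Klk7 to Klk4 lie near 0.

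Of the 26 kallikreins, 6 reached 5 CPM in the epithelial class on some day, and 11 had 0 UMIs in all epithelial cells. The 6 were Klk14, Klk13, Klk12, Klk11, Klk10 and Klk8, which lie next to each other but for Klk9, between Klk10 and Klk8. Klk14, a trypsin-like kallikrein that can activate others, stood at 0.629, 36.2, 105 and 70.9 CPM at days 0, 8, 13 and 20. Klk8, also called neuropsin, stood at 2.73, 17.7, 30.3 and 30.2 CPM. Klk11 was the exception, with 11.7 CPM at day 0 and 2.34, 10.6 and 5.51 CPM in culture, and Klk12 reached 6.67 CPM at day 13 alone.

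Neighbours of the pair were spread over cells in their own ways. Klk14 stood at 957 CPM in the basal-like cells of day 13, against 90.2 CPM in AT2-like and 19.6 CPM in airway secretory-like cells of that day. Klk12 was found almost only in those basal-like cells, with 211 of its 212 UMIs of day 13. Klk8 stood at 135 CPM there and at 68.9 CPM in airway secretory-like cells of day 20. It also stood at 81.3 CPM in endothelial-like cells of day 0, where Klk10 and Klk13 gave 0 UMIs. Klk11 stood at 83.2 CPM in the basal-like cells and at 14.9, 14.8 and 25.4 CPM in ciliated-like cells of days 8, 13 and 20. Genes of this locus have similar sequences, and how reads that match several of them were counted was not given in the sources used here.

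Genes most like each member were found by the Pearson correlation of log2(CPM + 1) over 30 sums of a sub-cluster and day, among 6151 genes. The sums come from 4 libraries and differ in depth, so the values are a description. Klk13 was the gene most like Klk10 (r = 0.898), followed by Egln3 (0.883), a prolyl hydroxylase of hypoxia-inducible factor, Mdh1 (0.873), a cytosolic malate dehydrogenase, Klk8 (0.849), Cotl1 (0.848), an actin-binding protein, Gstm5 (0.842), a glutathione transferase, Stc2 (0.837), a secreted stanniocalcin, and Adm (0.835), the peptide adrenomedullin. For Klk13 the most alike was Egln3 (0.928), followed by Ptges (0.900), which makes prostaglandin E, Klk10 (0.898), the arginase gene Arg1 (0.893), Stc2 (0.887), Sat1 (0.861), a polyamine acetyltransferase, and Mdh1 (0.848). Over the 27 culture sums alone the members headed each other's lists at r = 0.890, and Egln3 stayed among the first 8 for Klk13 (0.841) but not for Klk10.

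Gate genes were less alike. Over the 30 sums, r with Klk10 was 0.71 for Krt5, 0.60 for Scgb3a2, 0.55 for Mki67 and -0.24 for Sftpc. With Klk13 it was 0.51, 0.41, 0.46 and -0.02. Of these sums 3 are of day 0, on which the members were chosen to be low. Over the 27 culture sums alone, r with Klk10 was 0.68 for Krt5, 0.73 for Scgb3a2, 0.39 for Mki67 and -0.58 for Sftpc, and with Klk13 it was 0.46, 0.63, 0.20 and -0.50.

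Inhibitors of kallikreins and related proteases were measured from a list of 16, of which 4 could be called at day 8 against day 0 and 5 at the later steps. At day 8, Wfdc2, a whey acidic protein of airway secretions, stood at 7911 CPM against 3109 CPM at day 0 (log2 ratio 1.35), and Slpi, the secretory leukocyte protease inhibitor, at 54.8 against 18.2 CPM (1.59). These 2 of 4 were called higher and none lower, beside 12.4% of all genes higher and 27.6% lower. Spint1 and Spint2, membrane-bound inhibitors of epithelial serine proteases, stood at 123 and 534 CPM at day 8 and were not called. Spink5 stood at 0, 0.251, 23.4 and 0.313 CPM at days 0, 8, 13 and 20, and so peaked in the library that held the Krt13-high cells. Slpi was called at the later steps as well, at 119 CPM at day 13 and 35.2 CPM at day 20.

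Other epithelial serine proteases came from a list of 18, of which 6 could be called on each contrast. Tmprss4, a membrane protease, stood at 13.4 CPM at day 0 and 78.1 CPM at day 8 (log2 ratio 2.54), Prss22, a secreted tryptase of airways, at 15.3 and 78.2 CPM (2.35) and hepsin, from Hpn, at 11.7 and 45.2 CPM (1.94). These 3 were called higher, and Tmprss2, at 105 and 24.1 CPM (-2.12), was called lower, beside the same 12.4 and 27.6% of all genes. St14, which encodes matriptase, and Prss8, which encodes prostasin, were not called. At day 13 against day 8 none was called, and at day 20 Prss22 alone was called lower, at 12.1 against 75.9 CPM.

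Known and proposed targets of kallikreins came from a list of 22, with 9 that could be called at day 8 against day 0. Lower at day 8 were 7: the sodium channel subunits Scnn1a (65.0 against 460 CPM), Scnn1b and Scnn1g, E-cadherin from Cdh1 (125 against 469 CPM), occludin from Ocln, the laminin chain Lama3 and the thrombin receptor F2r. Higher were Fn1, which encodes fibronectin, at 49.1 against 3.77 CPM, and Igfbp3, a binding protein of insulin-like growth factors, at 116 against 3.56 CPM. Of all genes, 27.6% were called lower and 12.4% higher. The median log2 ratio of the 9 was -2.82, beside -0.33 over all 7328 genes. The epithelial class of day 0 is mostly AT1-like and ciliated-like cells, and that of day 8 mostly AT2-like cells. At day 13 against day 8, 1 of 7 was called higher and none lower, and at day 20 against day 13 none was called higher and 2 lower, among them Igfbp3 at 35.9 against 84.6 CPM. F2rl1, the receptor that kallikreins can cleave, stood at 17.8, 13.1, 14.4 and 12.8 CPM on the 4 days.

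Genes of stratified differentiation, the program in which kallikreins are best known, came from a list of 25. At day 8 against day 0, 8 were called higher and 2 lower of 11, beside 12.4 and 27.6% of all genes, with 97.5 CPM of Sprr1a, a cornified envelope protein, against 0 UMIs at day 0. At day 13 against day 8, 18 were called higher and 1 lower of 21, beside 3.70 and 1.54% of all genes, with a median log2 ratio of 2.84 beside 0.05 over all genes. Krt13 stood at 1347 CPM at day 13 against 1.75 CPM at day 8, and Krtdap at 371 CPM against 0 UMIs. At day 20 against day 13, 0 were called higher and 19 lower of 21, beside 3.16 and 6.26%, with a median of -3.72 beside -0.13. Klk10 and Klk13 were not called at either of these steps, and without the Krt13-high sub-cluster the Klk10 ratios were 0.23 at day 13 over day 8 and -0.33 at day 20 over day 13.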

How the data were processed

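Droplet single-cell RNA-seq of 4 samples gave 1 library per day. The authors deposited UMI counts for each gene and barcode, not normalized. The submitters' processing notes name Cell Ranger 7.0.1 and mm10. The annotation and any correction for free RNA: not given in the sources used here. The labels name nuclear RNA, while the labels' protocols describe single-cell suspensions.

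Cells with at least 500 genes and at most 15% mitochondrial UMIs were kept. Scrublet's automatic threshold called 0 doublets and did not work, so the highest scores were removed at 0.8% per 1000 barcodes, which left 6827, 7174, 8458 and 8417 cells at days 0, 8, 13 and 20. Cells were clustered in Scanpy 1.11.5 on 2000 variable genes without kallikreins, 30 components, 15 neighbours and Leiden resolution 1.0, and the epithelial class again alone. Clusters took, as X-like, the name of the best of 15 marker lists with at least 3 detected markers. That requirement, which named the airway secretory cluster, was chosen after seeing the data. UMIs were summed per class and library and scaled to CPM. Ratios carry exact conditional Poisson intervals, shares Clopper-Pearson intervals, and a side under 3 UMIs was set to 3. With 1 library per day no test across samples was made. A gene was called at 2-fold with the interval off 1 and at least 20 CPM.

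The members and the lists of genes were chosen with earlier results of these data known. Named are the members, kallikreins of at least 5 CPM, up to 6 genes of a list with at least 20 CPM, the gate genes, and the 8 genes most like each member among those of at least 50 CPM in some sum. One gene that this rule names is not reported here. Genes outside that rule that are named (Spink5 and Krtdap among them) were picked after their values were seen. The calling step was tested on simulated counts. Alternatives changed the cell filter, doublets, clustering, naming, scaling, CPM minimum, thinning, gates and reporter cut. Intervals were computed with SciPy 1.17.1.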

Additional observations from a re-analysis of the deposited data

Results flagged for a closer look

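From day 13 to day 20 the ratios of the members had opposite signs in 2 classes of cells. In AT2-like cells the log2 ratio of day 20 over day 13 was -0.91 for Klk10 and -0.39 for Klk13. In airway secretory-like cells it was 0.43 for Klk10 and 0.96 for Klk13. Each class had 1 library per day, so the difference between the classes was not tested. Different sub-clusters made up each class on the 2 days: sub-clusters 10 and 15 formed 24.9 and 16.0% of the AT2-like cells of day 20, and sub-cluster 9 formed 52.9% of the airway secretory-like cells of day 20 and 1.80% of those of day 13.

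Barcodes that the filter on cells removed also carried the transcripts in culture, data that only the alternative with no filter on cells uses. Klk10 gave 184, 484 and 190 UMIs in the removed barcodes of days 8, 13 and 20, and Klk13 gave 247, 336 and 209. The 1552 removed barcodes of day 0 gave 0 UMIs of either gene.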

How the results depend on the processing

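No paired analysis was possible because each day has 1 library, and no replicate could be left out. Of the alternatives to the log2 ratios over days, 58 values moved by less than their counting error and 14 by more, and no called direction turned. With no filter on cells, day 13 over day 8 was 0.69 for Klk10 and 0.20 for Klk13, the latter a change of direction. With doublets kept, Klk13 at day 20 over day 13 was 0.18, and airway secretory-like over AT2-like cells was 1.60 (Klk10) and 0.42 (Klk13) at day 8 and 1.57 (Klk10) at day 13. At Leiden resolution 2.0 the latter ratios were 2.09 and 0.89 at day 8 and 2.30 and 1.03 at day 13, where Klk13 passed 2-fold. With each library clustered on its own, day 13 over day 8 was -0.11 for Klk10 and -0.43 for Klk13, day 20 over day 13 was 0.00407 and 0.52, and 342 and 122 genes were called higher at these steps, against 219 and 189. No culture cluster was then named airway secretory-like, so that alternative gives no value for that class in culture. Scaled without the 10 most abundant genes, day 20 over day 13 was -0.29 for Klk10 and 0.42 for Klk13, with 342 genes higher. In naming by the highest-scoring list only, chosen after seeing the data, day 13 over day 8 was 0.70 for Klk10 with 330 genes higher and 49 lower, and day 20 over day 13 was -1.90 for Klk10 and -0.48 for Klk13. Without the Krt13-high sub-cluster, also chosen after seeing the data, Klk10 was at 0.23 and -0.33. The cause of these shifts was not tested.

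A 10 CPM minimum gave 373 genes higher at day 13 over day 8 and 623 lower at day 20 over day 13. A 50 CPM minimum gave 542 higher and 1034 lower, 102 and 48, and 101 and 172 at the 3 steps; fewer genes are tested there. Shares with a UMI follow the depth of thinning: at 1000 UMIs those of Klk10 and Klk13 at day 13 were 6.09 and 17.2% inside the Sftpc gate and 37.6 and 39.6% inside the Scgb3a2 gate, and at 5000 UMIs they were 16.8, 49.8, 67.9 and 76.1%. Gates at double the UMIs gave 60.7% for Klk13 inside the Scgb3a2 gate. In all, 39 of 96 gate shares and 15 of 60 levels by class moved by more than counting error, as did 11 of 12 EGFP-dominant shares when that cut was 50%. At day 0, epithelial cells had a median of 3216 UMIs, so a UMI of either gene was harder to find there.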
